A study of Mus musculus with 10 samples.

Results

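Genes for chromatin modifiers and remodellers were read for peaks of HA-tagged SET at their ends. The set held 88 of 19235 protein-coding genes. It was chosen by symbol: genes beginning with Hdac, Kdm, Kmt, Kat and a digit, Prmt, Dnmt, Tet and a digit, Setd, Smarc, Chd and a digit, Ehmt, Suv39h or Ezh, with Suz12, Eed and Jarid2 added. Chromosomes 8 and 11 were not analysed here. They hold 15 of the 103 genes that fit the names genome-wide, among them Suz12, Ezh1, Smarca5, Smarce1, Kat2a, Kat7, Kdm6b and Hdac5. A gene was counted as having a peak when a listed peak overlapped the 1 kb on either side of its start or its far end.

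The cells were KH2 mouse embryonic stem cells carrying a doxycycline-inducible transgene for HA-SETa or HA-SETb, the protein isoforms of SET. Each transgene was present either in SET-KO cells, here called addback, or in cells with no SET knockout named in their labels, here called overexpression. All 4 groups received 1 µg/ml doxycycline for 24 h, were crosslinked first with DSG (disuccinimidyl glutarate, which links proteins to each other) and then with formaldehyde, and were precipitated with an HA antibody. Each group had 2 replicates and was a single line, so line and group cannot be told apart, and nothing in the labels says that the replicates came from separate cultures, so the spread between them may be technical. Cells were grown on mouse embryonic fibroblast feeders, which were depleted before harvest. No expression values were used, so the cell type is as labelled. A further 2 samples, from SET-KO cells that received no doxycycline, were not analysed here, and the values below have no uninduced background beside them.

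Chromatin modifiers add or remove small chemical groups on histone tails and on DNA: methyltransferases and acetyltransferases add them, and demethylases, deacetylases and TET enzymes remove them. Remodellers such as the SWI/SNF and CHD proteins use ATP to move or eject nucleosomes. SET itself is a histone-binding protein with histone chaperone activity, and is known for shielding histone tails from acetyltransferases. In embryonic stem cells several of these enzymes, including PRC2, DNMT3 and TET1, act at the genes that switch during differentiation.

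The start windows of 3 genes with a peak in every addback library are shown first, because they span the range of patterns described below. They are taken from RefSeq promoter entries of GRCm38.p6, from 250 bases before to 50 bases after a start site, written 5′ to 3′ on the gene's strand. In a window that holds summits, capitals mark the stretch between the lowest and the highest peak summit of the 4 addback libraries. The Hdac8 window (chrX:102505109-102505408, minus strand) held all 4 summits and only 6 CG pairs. The Smarcd1 window (chr15:99702037-99702336, plus strand) also held all 4 summits, with 35 CG pairs. The Kmt2c window (chr5:25498734-25499033, minus strand) held 56 CG pairs and no summit. Its summits lay on both sides of the window, and it is printed in lower case throughout.
Hdac8: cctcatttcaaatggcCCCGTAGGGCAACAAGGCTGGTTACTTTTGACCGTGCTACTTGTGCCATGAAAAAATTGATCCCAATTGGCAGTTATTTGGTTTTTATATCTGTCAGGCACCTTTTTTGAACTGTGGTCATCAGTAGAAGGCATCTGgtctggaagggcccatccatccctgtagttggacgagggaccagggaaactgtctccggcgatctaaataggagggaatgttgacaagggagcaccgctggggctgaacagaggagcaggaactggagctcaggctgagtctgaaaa
Smarcd1: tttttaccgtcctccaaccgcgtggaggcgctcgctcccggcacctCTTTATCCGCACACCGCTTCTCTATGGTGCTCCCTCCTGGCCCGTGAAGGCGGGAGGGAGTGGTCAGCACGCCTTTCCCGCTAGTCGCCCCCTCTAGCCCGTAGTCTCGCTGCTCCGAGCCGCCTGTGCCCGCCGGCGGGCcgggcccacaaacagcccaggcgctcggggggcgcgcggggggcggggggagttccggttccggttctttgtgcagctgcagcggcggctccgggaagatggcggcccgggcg
Kmt2c: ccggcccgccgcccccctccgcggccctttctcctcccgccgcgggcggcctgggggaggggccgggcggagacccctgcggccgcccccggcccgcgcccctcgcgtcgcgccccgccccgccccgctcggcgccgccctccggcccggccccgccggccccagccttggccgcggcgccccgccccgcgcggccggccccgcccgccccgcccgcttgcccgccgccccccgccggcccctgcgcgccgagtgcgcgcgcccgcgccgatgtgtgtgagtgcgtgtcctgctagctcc

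The deposited lists held 22176 and 15701 peaks for SETa addback replicates 1 and 2, 2518 and 9768 for SETb addback, 4807 and 7675 for SETa overexpression, and 1343 and 2869 for SETb overexpression. Read depth was not available from these lists, and the number of peaks differed by group and between the replicates of a group. Counts of genes with a peak are therefore given beside the share of all protein-coding genes counted in the same way.

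Peaks lay at many chromatin genes in the addback libraries and at few in the overexpression libraries. In SETa addback, 53 and 48 of the 88 genes had a peak in replicates 1 and 2, which is 60.2% and 54.5%, where all protein-coding genes gave 34.3% and 31.8%. In SETb addback, 19 and 31 genes had one, 21.6% and 35.2%, against 8.41% and 18.4% of coding genes. In SETa overexpression the count was 3 in each replicate, 3.41%, against 0.983% and 1.9%. In SETb overexpression it was 1 in each, 1.14%, against 0.338% and 1.85%. The addback groups did not overlap the overexpression groups, and the share of chromatin genes stood above that of coding genes in all libraries except SETb overexpression replicate 2. The Wilson 95% intervals, which cover counting error only, ran from 49.8% to 69.8% in SETa addback replicate 1 and from 14.3% to 31.3% in SETb addback replicate 1.

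**Figure D1:**
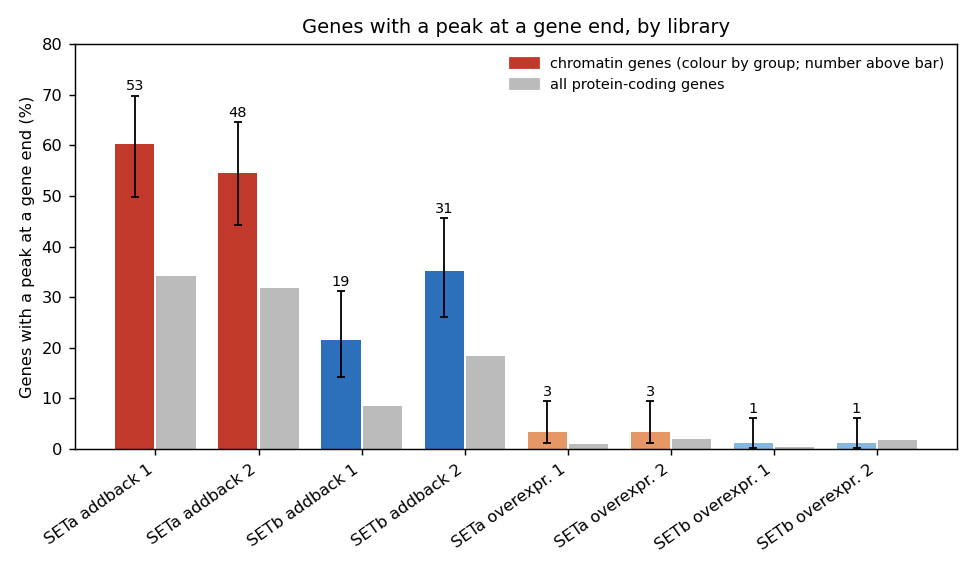
Share of the 88 chromatin genes (coloured bars, with their number above and the Wilson 95% interval as error bar) and of all 19235 protein-coding genes (grey bars) with a peak at a gene end, in percent on the vertical axis, for each of the 8 libraries on the horizontal axis. The coloured bar is the taller one in 7 of 8 libraries, and the 4 overexpression libraries stay at or below 3.41%.

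The first comparison asked whether the presence of endogenous SET went with fewer sites. The share of chromatin genes with a peak averaged 42.9% in SET KO and 2.27% in the lines without the knockout, a difference of 40.6 percentage points, with a spread between replicates of 5.22 points (SD). It was 54.0 points for SETa and 27.3 points for SETb. An exact two-sided permutation test over the 8 libraries gave p = 0.0556, the smallest value its 36 arrangements allow. For all coding genes the same difference was 22.0 points (exact permutation p = 0.0556), and the excess of chromatin genes over coding genes differed by 18.7 points (exact permutation p = 0.0556). As a ratio, the share of chromatin genes was 1.76, 1.71, 2.57 and 1.92 times that of coding genes in the addback libraries and 3.47, 1.80, 3.36 and 0.616 times in the overexpression libraries, which rest on 3, 3, 1 and 1 genes. On that scale the values of the backgrounds overlapped, so the larger excess in SET KO holds in points only. Under a threshold of −log10 q of at least 5, the difference among chromatin genes shrank to 5.68 points, with the same direction and the same p of 0.0556 (exact permutation). With the 1343 strongest peaks of each library it was 8.52 points.

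The second comparison set SETa against SETb. The shares averaged 57.4% ± 4.02 (SD, n = 2) in SETa addback and 28.4% ± 9.64 (SD, n = 2) in SETb addback, and 3.41% and 1.14% in the overexpression groups, where both replicates gave the same count. Coding genes averaged 33.0% ± 1.72 (SD, n = 2) and 13.4% ± 7.05 (SD, n = 2) in the addback groups. Over both backgrounds SETa exceeded SETb by 15.6 points (exact two-sided permutation p = 0.0556, again the smallest possible). For all coding genes the difference was 10.0 points (exact permutation p = 0.111), 19.7 points in addback, and the excess of chromatin genes over coding genes differed by 5.62 points (exact permutation p = 0.0556). As a ratio to coding genes the order in addback was the reverse, 1.76 and 1.71 for SETa and 2.57 and 1.92 for SETb, so the larger excess for SETa holds in points only. Much of the isoform difference was therefore shared with coding genes. The isoform difference was 29.0 points in addback and 2.27 points in overexpression, and the test of the difference between these values gave an exact permutation p of 0.444. The lists of SETa addback were also longer than those of SETb addback. With the 1343 strongest peaks of each library, 8, 10, 9 and 9 chromatin genes had a peak in the 4 addback libraries (SETa before SETb, replicate 1 before 2), against 4.65%, 5.77%, 5.39% and 4.96% of coding genes. The overexpression libraries then gave 2 and 2 for SETa and 1 and 1 for SETb, against 0.535%, 0.645%, 0.338% and 0.681%. SETa then exceeded SETb by 0.568 points over both backgrounds (exact permutation p = 0.667), and the isoforms did not differ in their addback mean. In SETa addback replicate 2 the limit of 1343 fell among peaks of equal p and fold, which were ordered by chromosome. Setd2 (rank 1380) was left out though it tied with Kdm3b (rank 1215), so the exact equality rests on that order. Without chromosome 6 the isoform difference was 12.5 points (exact permutation p = 0.333), and in overexpression alone it turned to −1.28 points.

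Across the 4 addback libraries, 16 chromatin genes had no peak, 29 had one in 1 library, 17 in 2, 16 in 3 and 10 in all 4. These are 18.2%, 33%, 19.3%, 18.2% and 11.4% of the set, where coding genes gave 52.5%, 19.6%, 15.5%, 7.23% and 5.15%. Both SETa addback libraries listed 38 chromatin genes (43.2%, against 22% of coding genes), and both SETb addback libraries listed 11 (12.5%, against 5.85%). The 10 genes in all 4 libraries were Hdac8, Kdm5a, Smarcd1, Kdm3b, Kmt2b, Kmt2c, Smarcb1, Kmt2e, Kat2b and Kmt2a, in order of their median rank percentile over the libraries. This count depended on SETb addback: without its replicate 1 it was 20, where coding genes gave 10.4%, and without its replicate 2 it was 16, where they gave 6.6%. At q of at most 0.05 it was 5 (Hdac8, Kdm5a, Smarcd1, Kdm3b and Kmt2c), where coding genes gave 3.25%. The 4 peaks of a gene shared bases in 5 of the 10 genes (Hdac8, Kdm5a, Smarcd1, Kdm3b and Kat2b). In the other 5, which were all KMT2 genes except Smarcb1, they did not all overlap each other.

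**Figure D2:**
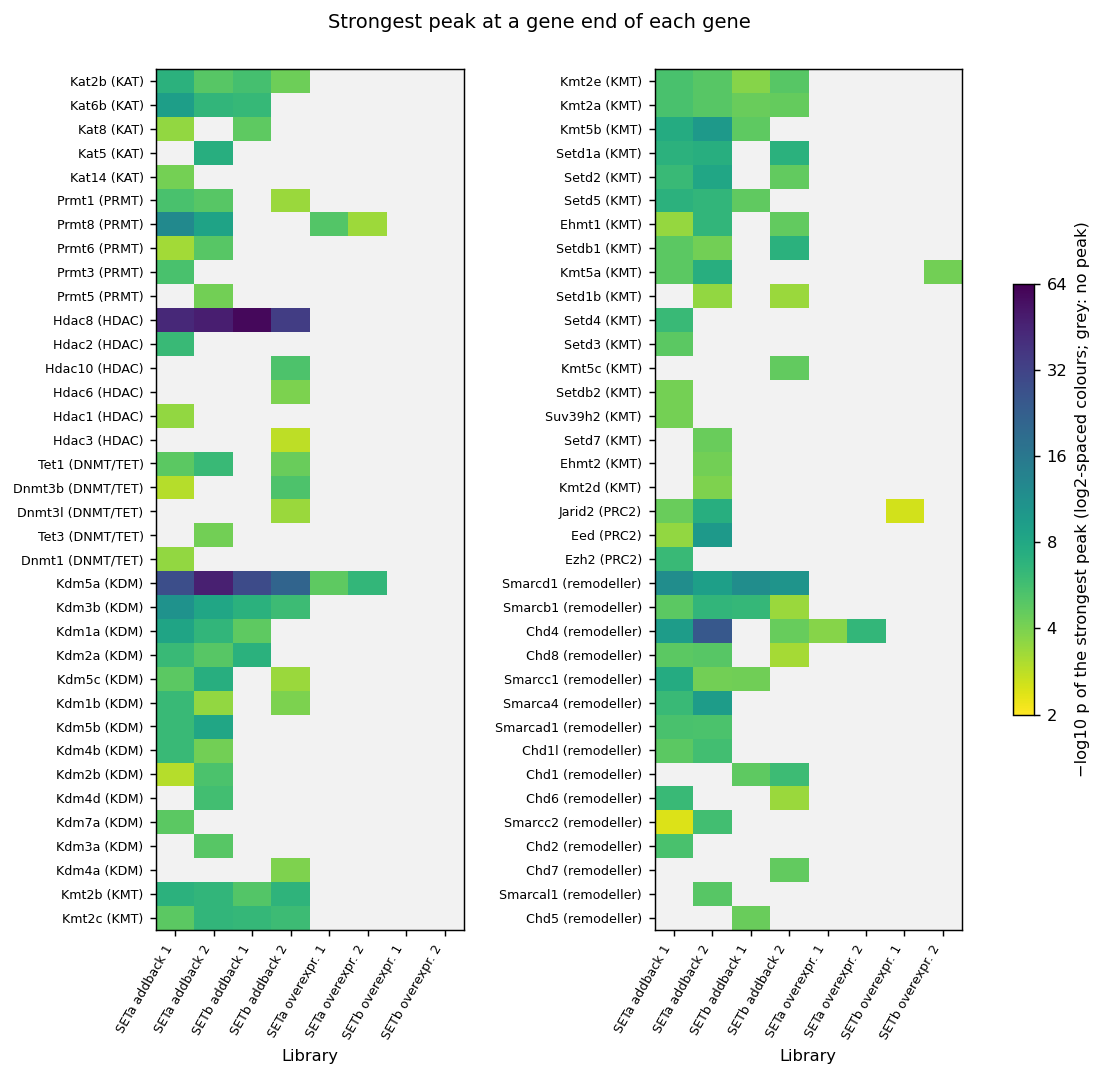
Strongest peak at a gene end for each chromatin gene with at least 1 peak (rows, with the enzyme class in brackets) in each of the 8 libraries (columns), coloured by the authors' −log10 p on a log2-spaced scale, with grey for no listed peak. Hdac8 and Kdm5a are the darkest rows in all 4 addback columns, and the overexpression columns hold colour only at Kdm5a, Chd4, Prmt8, Jarid2 and Kmt5a.

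Only a few of these peaks were strong. IDR lists keep peaks that both replicates of a group rank alike. The SETa addback list held peaks at Hdac8, Kdm5a, Prmt8 and Smarcd1, 4.55% of chromatin genes (Wilson 95% interval 1.78% to 11.1%), against 2.78% of coding genes. The SETb addback list held Hdac8, Kdm5a and Smarcd1, 3.41% (1.17% to 9.55%), against 2.62%. Both shares lay near that of coding genes. The overexpression lists held none of the 88 genes, which allows a share of up to 3.41% by the limit of 3 counts and up to 4.18% by the Wilson interval, and 0.0676% and 0.026% of coding genes. In the library lists, a −log10 q of at least 5 was met by 7 chromatin genes in each SETa addback library, against 3.88% and 4.52% of coding genes. In each SETb addback library it was met by 3, Hdac8, Kdm5a and Smarcd1, against 2.69% and 2.62%. It was met by no chromatin gene in overexpression, against 0.0052% and 0.0624% of coding genes for SETa and 0% and 0.0052% for SETb. At a q of at most 0.05, 40 and 38 chromatin genes had a peak in SETa addback, against 22% and 24.2% of coding genes, and 9 and 11 in SETb addback, against 4.85% and 7.39%. In overexpression the counts at that q were 0 and 2 for SETa, against 0.187% and 0.697%, and 0 and 0 for SETb, against 0.0208% and 0.104%.

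Among the erasers of histone acetylation, Hdac8 carried the strongest peak of the whole set. Hdac8 encodes a deacetylase that acts on histones and on the cohesin subunit SMC3. Its peak had a fold enrichment over local background of 12.7 and 15.9 in SETa addback and of 13.7 and 9.44 in SETb addback, and it ranked 101, 84, 90 and 134 in the 4 lists. The isoforms overlapped, and no overexpression library listed a peak there. The summits lay 125, 35, 62 and −11 bp from the annotated gene start (positive into the gene), and all 4 peaks shared 568 bp. The start site of the Hdac8 sequence above lies 223 bp further into the gene than that annotated gene start. All 4 summits therefore fall 98 to 234 bp before it, in the capitals. The IDR peak of SETa addback was at chrX:102504905-102505851 (GRCm38), rank 81 of 530, and that of SETb addback at chrX:102504984-102505596, rank 126 of 485. An end of the long non-coding RNA gene Gm32262 lies within the same window, 7 to 70 bp from the summits, so a peak of one cannot be told apart from a peak of the other.

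Of the 9 other HDAC genes, 2, 0, 0 and 3 had a peak in the 4 addback libraries (22.2%, 0%, 0% and 33.3%), against 34.3%, 31.8%, 8.41% and 18.4% of coding genes. Hdac1 and Hdac2, the catalytic subunits of the NuRD, Sin3 and CoREST complexes, had a peak in SETa addback replicate 1 alone, with folds of 2.74 and 3.73. Hdac3, Hdac6 and Hdac10 had one in SETb addback replicate 2 alone, with folds of 2.42, 2.91 and 3.39. The peak of Hdac2 stood at a rank percentile of 13.3 in its list and that of Hdac10 at 19.7, while that of Hdac3 stood at 93.9. Ties of p and fold were ordered by chromosome. Setd2 at 17.6 tied with Hdac2, and Dnmt3b at 21.1 tied with Hdac10. Hdac4, Hdac7, Hdac9 and Hdac11, which include class IIa enzymes best known from muscle, vessel and brain, had none at their ends in any library. Hdac4, Hdac7 and Hdac9 held peaks in their interior in some libraries.

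Of the 5 acetyltransferase genes, 4, 3, 3 and 1 had a peak in the addback libraries, 80%, 60%, 60% and 20% against the same coding-gene shares. Kat2b (PCAF) was the gene present in all 4 addback libraries, with folds of 3.98, 3.58, 3.49 and 2.99. Its summits lay 656, 812, 631 and 915 bp inside the gene, outside both of its RefSeq start windows. Kat5 (Tip60), the catalytic subunit of the NuA4 complex, had a peak in SETa addback replicate 2 with a fold of 4.55, and that summit lay 229 bp from Rnaseh2c and 912 bp from Kat5. Kat6b had peaks in 3 addback libraries, with folds of 4.73, 4.23 and 3.66.

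Among the lysine methyltransferases, 15 and 15 of 21 genes had a peak in SETa addback and 6 and 10 in SETb addback. These are 71.4%, 71.4%, 28.6% and 47.6%, against 34.3%, 31.8%, 8.41% and 18.4% of coding genes. All but Suv39h1 had one in at least 1 addback library. Kmt2a, Kmt2b, Kmt2c and Kmt2e were present in all 4 libraries. KMT2A (MLL1) and KMT2B methylate H3K4 at promoters, KMT2C (MLL3) does so at enhancers, and KMT2E is a family member not known as an active methyltransferase. Their folds were moderate: 3.49, 3.58, 3.01 and 3.11 for Kmt2a, 3.98, 4.23, 3.19 and 3.88 for Kmt2b, 3.24, 4.23, 3.72 and 3.64 for Kmt2c, and 3.49, 3.58, 2.51 and 3.22 for Kmt2e. At q of at most 0.05, Kmt2c alone of these 4 genes kept a peak in all 4 addback libraries. The Kmt2e peak in SETb addback replicate 1 had a −log10 q of 0.189. Kmt2d, the close relative of Kmt2c, had a single peak, in SETa addback replicate 2, with a fold of 3.07 and its summit nearer Prkag1. The Kmt2c summits flanked the start window printed above, 815, 682 and 839 bp before the annotated gene start (72 bp before the start site of the window) in 3 libraries and 831 bp into the gene in SETb addback replicate 1. In those 3 libraries they lay 127, 260 and 103 bp from the long non-coding RNA gene 4831440E17Rik. In SETa and SETb addback replicate 2, Kmt2e summits lay 500 and 246 bp from the non-coding gene 5031425E22Rik. They lay 817 and 1071 bp from Kmt2e. In SETb addback replicate 2 the Kmt2b summit lay 81 bp from Zbtb32 and 543 bp from Kmt2b. Such peaks cannot be told apart from peaks of these neighbours. Setd1a, Setd2, Setd5, Setdb1, Ehmt1 and Kmt5b were each present in 3 addback libraries.

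PRC2, which methylates H3K27 to keep developmental genes silent, was represented by Ezh2, Eed, Jarid2 and Ezhip. SETa addback listed 3 and 2 of the 4, and neither SETb addback library listed any at a gene end. With 4 genes and coding-gene shares of 8.41% and 18.4% in the SETb addback libraries, a count of 0 lies near the background there. In SETa addback the shares were 75% and 50%, against 34.3% and 31.8%. Eed had folds of 2.74 and 5.53 in the SETa addback replicates, Jarid2 3.04 and 4.55, and Ezh2, the catalytic subunit, 3.73 in replicate 1 alone. Jarid2 also had a peak in SETb overexpression replicate 1, with a fold of 2.33 and a summit 1010 bp into the gene. That peak ranked 1288 of 1343, near the bottom of its list. Ezhip, an inhibitor of the complex, had no peak in any library.

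Among demethylases, 10 and 11 of 17 genes had a peak in SETa addback and 4 and 5 in SETb addback. The shares were 58.8%, 64.7%, 23.5% and 29.4%, against 34.3%, 31.8%, 8.41% and 18.4% of coding genes. Kdm5a, an H3K4 demethylase, was listed in all 4 with folds of 6.58 and 10.9 for SETa and 7.57 and 5.71 for SETb, and ranks of 227, 85, 254 and 248. The summits spanned 36 bp. They lay 61 to 97 bp from the end of the neighbouring gene Ccdc77 and 173 to 209 bp from that of Kdm5a, so every addback summit was nearer Ccdc77. When each peak was given to its nearest coding gene, an alternative chosen after seeing the data, Kdm5a had none of these peaks, 9 chromatin genes were left in all 4 addback libraries (with 3.96% of coding genes, against 5.15% before), and 3 and 2 in the SETa and SETb addback IDR lists. No coding-gene share of the IDR lists is given here for that assignment. The IDR peaks counted for Kdm5a were at chr6:120363337-120365249, rank 174, and chr6:120363580-120364840, rank 240. Kdm3b, an H3K9 demethylase, had folds of 5.23, 4.88, 3.89 and 3.64, with the higher values in SETa. Kdm1a (LSD1), which removes H3K4 methylation in the CoREST complex, had folds of 4.48, 4.23 and 3.02 and was not listed in SETb addback replicate 2.

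Of the 7 genes for DNA methylation and its removal, 3 and 2 had a peak in SETa addback and 0 and 3 in SETb addback. These 42.9%, 28.6%, 0% and 42.9% stand against 34.3%, 31.8%, 8.41% and 18.4% of coding genes, and the SETa values lie near those shares. Dnmt1, the maintenance methyltransferase, had a fold of 2.74 in SETa addback replicate 1 alone. Dnmt3a had no peak at its ends in any library, and Dnmt3b had folds of 2.49 in SETa addback replicate 1 and 3.39 in SETb addback replicate 2. Tet1, which oxidises 5-methylcytosine, had folds of 3.15 and 3.99 in SETa addback and 2.96 in SETb addback replicate 2. Of the 6 arginine methyltransferases, 4 and 4 had a peak in SETa addback (66.7% in each, against 34.3% and 31.8% of coding genes) and 0 and 1 in SETb addback. The SETb counts, 0% and 16.7%, lie near the coding-gene shares of 8.41% and 18.4%. Prmt8 was listed in both SETa addback libraries, with folds of 4.56 and 4.15 and summits 521 and 1277 bp into the gene. Its IDR peak at chr6:127767956-127768546 ranked 490 of 530.

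Among the remodellers, 11 and 10 of 18 genes had a peak in SETa addback and 5 and 7 in SETb addback. The shares were 61.1%, 55.6%, 27.8% and 38.9%, against 34.3%, 31.8%, 8.41% and 18.4% of coding genes. Smarcd1 (BAF60A), a SWI/SNF subunit that links the complex to transcription factors, had folds of 5.48, 5.20, 4.74 and 4.53. The summits fell 189, 107, 204 and 64 bp before the gene start, inside the capitals of its sequence above. Its IDR peaks were at chr15:99701848-99702795, rank 477 of 530, and chr15:99701765-99702320, rank 379 of 485. Smarcb1 (SNF5), a core subunit, had folds of 3.24, 4.23, 3.72 and 2.67. Smarca4 (BRG1), the ATPase of the complex in embryonic stem cells, had a peak at its ends in SETa addback alone, with folds of 3.73 and 5.22, and 1 in its interior in SETb addback replicate 2. Chd4, the NuRD ATPase, had its strongest peak at its start in SETa addback replicate 1 (fold 3.80, summit 230 bp in) and in SETb addback replicate 2 (2.90, 402 bp in). In SETa addback replicate 2 its strongest peak, with a fold of 7.40, lay at the far end of the gene, 21 bp from Nop2, and 2 further peaks lay at its start, with a highest fold of 4.53.

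**Figure D3:**
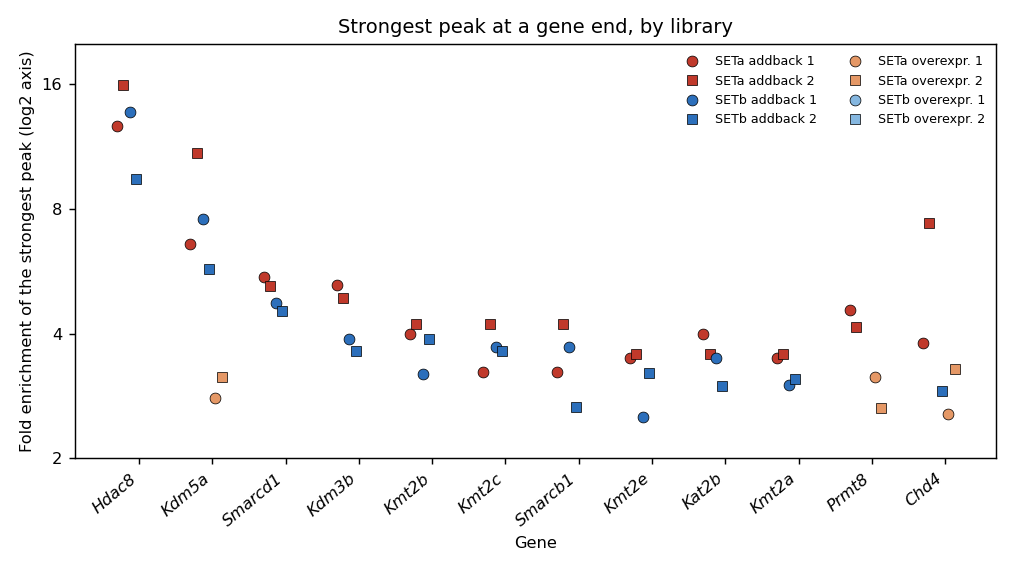
Fold enrichment of the strongest peak at a gene end (log2 axis) for the 10 genes listed in all 4 addback libraries and for Prmt8 and Chd4, with 1 point per library and no point where no peak was listed. Hdac8 spans 9.44 to 15.9, Kdm5a 5.71 to 10.9 in the addback libraries, and the KMT2 genes stay at or below 4.23.

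Few genes were listed for one isoform alone in both replicates. In addback, 12 chromatin genes had a peak in both SETa libraries and in neither SETb library, 13.6% against 10.1% of coding genes. The 5 with the highest mean fold were Smarca4 (3.73 and 5.22), Prmt8 (4.56 and 4.15), Kdm5b (3.73 and 4.88), Eed (2.74 and 5.53) and Kmt5a (3.24 and 4.55). The reverse pattern was seen at Chd1 alone, 1.14% against 0.187% of coding genes. Chd1, a remodeller that binds H3K4 trimethylation and is needed for open chromatin in embryonic stem cells, had folds of 3.02 and 3.64 in the SETb addback libraries. Of the 5 genes, Smarca4, Kdm5b and Eed also held 1, 1 and 2 peaks in their interior in SETb addback replicate 2, as Jarid2 held 2. These lists differ in length, and no difference between isoforms was tested for a single gene.

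In the overexpression libraries, 5 chromatin genes had a peak, 5.68% against 3.68% of coding genes, and all 5 also had one in an addback library. In SETa overexpression both replicates listed Kdm5a (folds 2.79 and 3.15), Chd4 (2.56 and 3.28) and Prmt8 (3.14 and 2.65). These 3 genes lie within 118 to 136 Mb of chromosome 6, a stretch where 65.9% and 79.5% of 258 coding genes had a peak in SETa overexpression, against 2.71% and 9.3% in SETb overexpression. Its shares were 41.5% and 41.5% in SETa addback and 16.3% and 20.2% in SETb addback. Coding genes outside it gave 34.2%, 31.7%, 8.30% and 18.4% in these addback libraries. Outside that stretch none of 85 chromatin genes had a peak in SETa overexpression, where coding genes gave 0.100% and 0.843%, so a count of 0 lies near the background. The strongest peaks at Kdm5a had summits 566 and 453 bp from its end, where those of addback lay at 173 to 209 bp. At Chd4 the strongest peaks lay at its far end near Nop2, and 1 and 2 further peaks lay within 1 kb of its start, with highest folds of 2.43 and 2.69. In SETb overexpression the listed genes were Jarid2 in replicate 1 and Kmt5a in replicate 2 (fold 2.67), with no gene in common.

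Of peaks within 1 kb of an end, most lay nearer the start than the far end, at chromatin genes as at coding genes. Where the RefSeq table gave a strand, the summit was nearer the start than the far end at 44 of 45, 38 of 41, 13 of 13 and 22 of 22 chromatin genes in the 4 addback libraries, against 89.0%, 90.8%, 94.2% and 90.7% of coding genes. The median distance to the start was 404, 420, 326 and 398.5 bp, where coding genes gave 344, 322, 200 and 316.5 bp. Peaks at chromatin genes thus lay no closer to the start than those at coding genes in these libraries. Another coding gene was nearer the summit at 4, 9, 2 and 5 of the genes with a peak. By the peak nearest to either end of a gene in each addback library, the chromatin genes closest to the 1 kb limit from inside were Prmt6 (980 bp from the gene end), Kdm2b (930 bp) and Kdm2a (872 bp), and the closest from outside were Kat6b (1025 bp), Chd7 (1083 bp) and Chd4 (1102 bp).

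**Figure D4:**
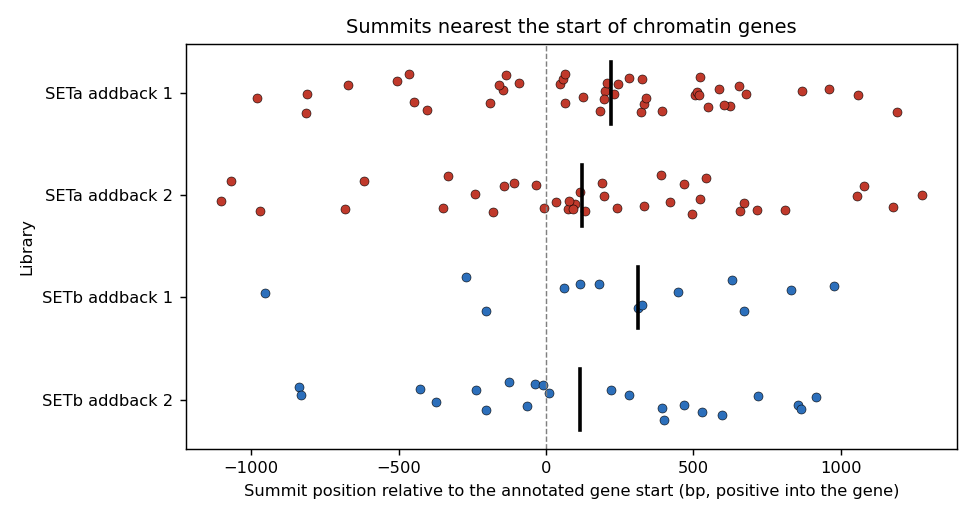
Summit positions of the strongest peak of each chromatin gene with known strand and a summit nearest its start, in bp from the annotated start (positive into the gene) on the horizontal axis, for the 4 addback libraries on the vertical axis, with the median as a black bar and points spread vertically for legibility. Summits spread on both sides of the start in every library, over the whole window.

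The strongest peak of a chromatin gene had a median rank percentile (0 is the strongest) of 28.1 and 23.5 in SETa addback, against 33.6 and 31.9 for coding genes with a peak, and of 58.1 and 40.1 in SETb addback, against 39.6 and 34.7. They ranked ahead of coding genes in the SETa lists and behind them in the SETb lists. The median fold was 3.49 and 3.91 in SETa addback, against 3.24 and 3.90, and 3.19 and 3.15 in SETb addback, against 3.51 and 3.15.

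Start windows of chromatin genes were richer in CG pairs than those of coding genes. RefSeq start windows were matched for 75 of the 88 chromatin genes and 15496 of the 19235 coding genes, and the median number of CG pairs in the 300 bp was 28 and 14. Chromatin genes with a peak in 3 or 4 addback libraries had a median of 29 CG pairs, those in 1 or 2 libraries 28, and those in none 25. For coding genes the medians were 24, 22 and 4. Among genes with at least 20 CG pairs, a peak was listed at 63.0%, 51.9%, 16.7% and 25.9% of 54 chromatin genes in the 4 addback libraries, against 56.7%, 53.9%, 14.9% and 31.3% of 5899 coding genes, so the shares were near each other. Among genes with fewer CG pairs it was listed at 52.4%, 61.9%, 19.0% and 38.1% of 21 chromatin genes, against 20.5%, 18.8%, 4.55% and 10.6% of 9597 coding genes. Within the chromatin genes, those with fewer CG pairs had the higher share in 3 of the 4 libraries. A start window was matched for 45 of 53, 41 of 48, 13 of 19 and 22 of 31 chromatin genes with a peak. For coding genes with a peak it was matched for 5314 of 6591, 4985 of 6123, 1316 of 1617 and 2864 of 3535. Genes without one, Kdm5a, Kdm3b, Kmt2b and Kmt2e among them, are outside this comparison. The part of base composition in the higher share of chromatin genes was not tested further.

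**Figure D5:**
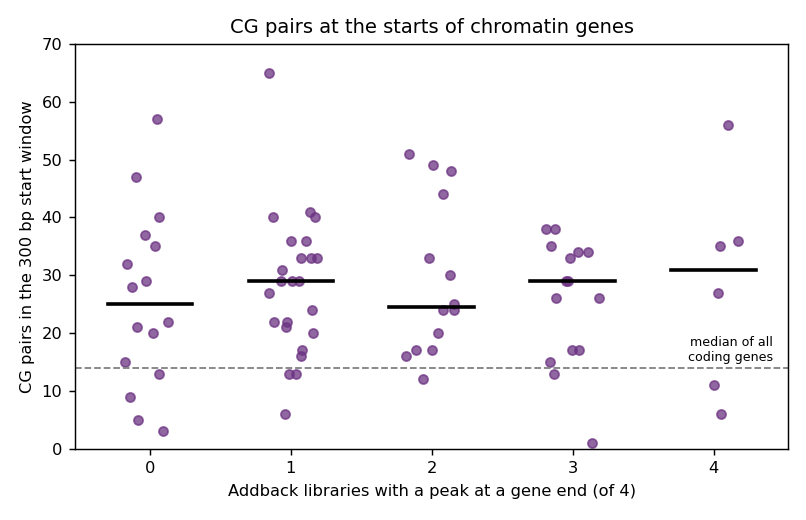
Number of CG pairs in the 300 bp RefSeq start window (vertical axis) of each of 75 chromatin genes, by the number of addback libraries with a peak at a gene end (horizontal axis, 0 to 4), with medians as black bars and the coding-gene median of 14 as a dashed line. Points overlap widely between the 5 classes, and all 5 medians lie above the dashed line.

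Motifs were searched as exact letters on both strands. GGGCGG, the core of a GC box, was in the start window of 73.3% of the 75 chromatin genes and of 48.5% of coding genes. CCGGAAG, an ETS-type core, was in 16% of chromatin genes and 12.7% of coding genes. It was in 30.2% of coding genes with a peak in 3 or 4 addback libraries but in 3 of the 21 chromatin genes of that kind (14.3%). The exact YY1-type element searched was in 2 chromatin genes (2.67%, against 0.987% of coding genes), one of them Smarcd1, where it starts at base 283 of the sequence printed above. The Hdac8 window held CCAAT on both strands and TATAAA on the opposite strand, and it held no GC-box core. Genes with CCAAT made up 49.3% of chromatin genes and 42.2% of coding genes, and those with TATAAA 6.67% and 14.8%.

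Genes that work with these enzymes but fell outside the symbol rule were listed as well, among them subunits of SWI/SNF, NuRD and Sin3, COMPASS, PRC1 and the acetyltransferase complexes. Of 80 analysed, 60 and 52 had a peak in SETa addback (75% and 65%), 14 and 31 in SETb addback (17.5% and 38.8%), 2 and 2 in SETa overexpression, and 1 and 5 in SETb overexpression (2.5%, 2.5%, 1.25% and 6.25%). Coding genes gave 34.3%, 31.8%, 8.41% and 18.4% in the addback libraries and 0.983%, 1.9%, 0.338% and 1.85% in the overexpression libraries. Peaks in all 4 addback libraries were listed at Rbbp5, Dot1l, Ep300, Uhrf1, Actl6a, Suds3, Ruvbl1, Phc1 and Trim28. Actl6a (BAF53A), a SWI/SNF subunit, had folds of 9.96, 9.10, 12.6 and 10.4, and Rbbp5, the COMPASS subunit that works with the KMT2 enzymes, had 9.34, 11.7, 5.82 and 6.10. Both were in the IDR lists of both addback groups. Their folds exceeded those of every SWI/SNF and KMT2 gene of the symbol set.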

How the data were processed

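HA ChIP-seq peak lists of 8 libraries and 4 IDR lists were used. Per the submitters' processing notes, Bowtie2, MACS2 and deepTools and the builds GRCm38 and mm10 were named, without roles. Peaks were called per library, as the deposited lists show. The fold enrichment in them is a linear ratio of the authors, the −log10 p and −log10 q are the authors' values as deposited, and the score is the authors' own scaled value. In the deposited IDR lists the score is a scaled IDR. Read depth was not given in the sources used here. The 2 samples without doxycycline were not analysed here.

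Genes, ends and start windows came from RefSeq tables of GRCm38.p6, without chromosomes 8 and 11. For each gene the peak of lowest p that overlapped 1 kb on either side of an end was kept, and its rank is its place in the whole list. Peaks of equal p and fold were ordered by chromosome and start, so their ranks differ by that order alone. Shares over libraries were compared by exact two-sided permutation with 36 arrangements, on Python 3.11.15 with scipy 1.17.1, and the counting was tested on simulated data. Wilson 95% intervals cover counting error only. Alternatives were windows of 250 bp and 2.5 kb, starts alone, summits, q of at most 0.05, −log10 q of at least 5, the 1343 strongest peaks, IDR of at most 0.01, leaving out chromosome 6, X and Y or a replicate, and a replicate block. Assigning each peak to its nearest coding gene was added after seeing the data.

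The genes and lists were chosen with earlier results of these data known. Genes were named when in an IDR list, when in all 4 addback libraries, when among the 5 of highest fold in both SETa and no SETb addback libraries or in the reverse pattern, when just inside or outside 1 kb, or as textbook members (Dnmt1, Dnmt3a, Dnmt3b, Tet1, Ezh2, Eed, Jarid2, Kdm1a, Hdac1, Hdac2, Smarca4, Chd4 and Kat5). Other genes with values were chosen after their values were seen. Of the start windows, 13 of 88 genes had no entry: Chd1, Chd2, Chd7, Hdac1, Hdac3, Hdac10, Kdm2a, Kdm3b, Kdm4b, Kdm5a, Kmt2b, Kmt2e and Setd1b.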

Additional observations from a re-analysis of the deposited data

How the results depend on the processing

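Summed over both strata, the direction of both comparisons of shares held under all 19 alternatives of each, but not its size. Within strata, SETa minus SETb turned to −1.28 points in overexpression without chromosome 6. It came to 0 in addback with the 1343 strongest peaks, where ties at the limit were broken by chromosome order. SET KO minus the lines without the knockout ranged from 5.68 to 48.6 points over the filters and windows and from 37.2 to 44.0 points with 1 replicate left out, with an exact permutation p of 0.0556 in each. SETa minus SETb was 12.2 to 19.0 points with 1 replicate left out (exact permutation p = 0.0556), but 2.27 at −log10 q of at least 5 (0.333), 0.568 with the 1343 strongest peaks (0.667), 12.5 without chromosome 6 (0.333), 11.4 at 250 bp (0.111) and 17.0 at q of at most 0.05 (0.167), with the exact permutation p in brackets. With replicate number as a block the differences stayed at 40.6 and 15.6 points, with an exact permutation p of 0.125 for each, the smallest its 16 arrangements allow. Correlations of gene-level deviations between same-numbered replicates were between −0.0018 and 0.0281. As they rest on sparse peak calls, they cannot show whether same-numbered replicates shared a day or batch. A −log10 q of at least 5 left 7, 7, 3 and 3 genes in the addback libraries (SETa before SETb) and 0 in each overexpression library, and the 1343 strongest peaks gave 8, 10, 9 and 9 in addback. A q of at most 0.05 left 9 and 11 genes in SETb addback, 0 in SETa overexpression replicate 1 and 0 and 0 in SETb overexpression. A 250 bp window gave 12 and 20 in SETb addback, 1 in SETa overexpression replicate 2 and 0 in SETb overexpression replicate 1, where requiring the summit in the window also gave 0. An IDR of at most 0.01 left 2 genes in SETa addback. For that limit, and per library for the 250 bp window and the summit rule, no coding-gene share is given here. Whether these counts moved with the background was not tested. The 10 genes in all addback libraries became 5 at 250 bp, 5 at q of at most 0.05, 18 at 2.5 kb (3.76%, 3.25% and 6.34% of coding genes) and 10 to 20 with 1 replicate left out. The cause of these changes was not tested, apart from the smaller number of peaks that a stricter limit leaves. A missing peak says only that none was listed, and list length ran from 1343 to 22176 peaks.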

Other observations

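With the gene interior included, the share of chromatin genes with a peak also stood above that of coding genes. Counting a peak anywhere from 1 kb before to 1 kb after a gene, 70, 64, 27 and 51 of the 88 chromatin genes had one in the addback libraries (SETa before SETb), 79.5%, 72.7%, 30.7% and 58.0%, against 46.5%, 41.0%, 10.7% and 28.3% of coding genes. Longer genes have more room for a peak, and the part of length in this was not tested. The peak lay only in the interior at 17, 16, 8 and 20 of them (19.3%, 18.2%, 9.09% and 22.7%), against 12.2%, 9.19%, 2.27% and 9.90% of coding genes. Dnmt3a, with no peak at either end, held 3, 1, 1 and 1 peaks in its span in the addback libraries. Smarcd3, a SWI/SNF subunit of muscle and heart, also had no peak at its ends and held 6, 1, 0 and 2. Kdm5b held 7 and 3 in the SETa addback libraries. In overexpression 3 and 5 chromatin genes had a peak by this count for SETa and 2 and 7 for SETb (3.41%, 5.68%, 2.27% and 7.95%), against 2.51%, 4.65%, 1.61% and 4.73% of coding genes. The 3 genes of the chromosome 6 stretch held many peaks there in SETa overexpression: Kdm5a held 32 and 38, Prmt8 16 and 15, and Chd4 14 and 15, where the addback libraries listed 0 to 4. Prmt2, Hdac11, Kdm5d, Kdm8, Suv39h1, Ezhip and Smarca2 had no peak anywhere in their span in any of the 8 libraries.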
